A study of Mus musculus with 6 samples.

Results

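The 9 genes Pax6, Zic1, Sox1, Nes, Neurog2, Olig2, Tubb3, Map2 and Ncam1, which mark steps of neural development, were followed in mouse embryonic stem cells after a short exposure to SC1. Their 15 probes, of 55681 distinct non-control probes on each array, were taken as those whose transcript accession belongs to 1 of the 9 genes. The SC1 group was 3 samples of J1 embryonic stem cells given 1 µM SC1 for 6 h, and the DMSO group was 3 samples of the same line given the solvent for 6 h. All 6 samples grew on gelatin in serum replacement medium with the cytokine LIF, which keeps such cells self-renewing through STAT3. J1 is 1 line, from the inner cell mass of the 129S4/SvJae strain, and the only line measured. SC1, also called pluripotin, is a synthetic compound described as an inhibitor of the kinase ERK1 and of RasGAP, a brake on RAS. The treatment text names SC1 for all samples, so the groups were taken from the sample titles. No label says whether the replicates were separate cultures, so the tests measure only how these samples vary, and that may be technical variation.

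During neural development, transcription factors of the PAX, ZIC and SOXB1 families mark dividing neural progenitors, which also carry the intermediate filament protein nestin. Basic helix-loop-helix factors such as Neurog2 and Olig2 then direct cells towards neurons or towards motor neurons and oligodendrocytes. Neurons are recognised by tubulins, microtubule-associated proteins and adhesion molecules such as those made from Tubb3, Map2 and Ncam1. In cultured mouse embryonic stem cells the FGF and ERK pathway is known as a signal for the step from self-renewal towards lineage entry, neural entry included.

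Promoter sequence is shown for the members with the largest differences in each direction, Pax6 and Zic1 (lower with SC1) and Tubb3 (higher with SC1), whose values follow below. Each is the 250 bases before the RefSeq transcript start on GRCm38.p6, 5′ to 3′ on the strand of the gene: Pax6 at chr2:105668646-105668895 on the plus strand, Zic1 at chr9:91365769-91366018 on the minus strand and Tubb3 at chr8:123411303-123411552 on the plus strand. Capitals mark CCAAT, its other-strand form ATTGG, and CACGTG, searched on both strands.
Pax6: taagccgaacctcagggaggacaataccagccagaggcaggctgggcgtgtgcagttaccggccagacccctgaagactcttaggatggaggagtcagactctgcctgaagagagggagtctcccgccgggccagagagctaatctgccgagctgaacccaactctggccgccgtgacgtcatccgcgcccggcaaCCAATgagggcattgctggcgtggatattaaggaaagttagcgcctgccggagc
Zic1: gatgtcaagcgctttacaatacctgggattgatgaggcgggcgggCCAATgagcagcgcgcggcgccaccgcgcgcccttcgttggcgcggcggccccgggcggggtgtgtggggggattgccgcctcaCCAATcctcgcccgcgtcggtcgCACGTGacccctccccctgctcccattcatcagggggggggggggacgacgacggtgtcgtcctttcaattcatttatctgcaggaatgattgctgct
Tubb3: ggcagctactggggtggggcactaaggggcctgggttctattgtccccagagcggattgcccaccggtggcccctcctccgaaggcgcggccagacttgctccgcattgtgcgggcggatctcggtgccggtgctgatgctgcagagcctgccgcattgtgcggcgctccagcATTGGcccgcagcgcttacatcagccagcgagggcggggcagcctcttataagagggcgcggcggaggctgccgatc
The Pax6 and Tubb3 stretches each hold 1 CCAAT match, and that of Zic1 holds 2 CCAAT matches and 1 CACGTG match. Pax6 has another listed start, with no CCAAT in the 250 bases before it (chr2:105682213-105682462). Entries were found for every member but Ncam1, 9 promoters in all, and 5 of them hold CCAAT, against 33.8% of 32851 mouse promoters searched the same way. CACGTG was found in 1 of the 9, against 6.02% of all promoters, and its degenerate form CANNTG, which CACGTG also matches, in 2 of the 9, against 66.2%. These matches describe the letters only.

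Signal was read in a single colour (Cy3). SC1 arrays had a 75th percentile of processed signal between 443.3 and 493.3, against 532.2 to 539 for DMSO arrays, so levels were compared after dividing by it. Between 63.2% and 65.1% of probes were well above background on SC1 arrays, against 65.03% to 65.59% on DMSO arrays. The lowest signal called well above background was 8.53 to 9.57 on the 6 arrays, and no spot was saturated. All 10 embryonic stem cell markers of a list were well above background on all 6 arrays. All arrays shared 1 slide and 1 scan, but SC1 replicate 1 and the DMSO arrays lay in slide column 1, and SC1 replicates 2 and 3 in column 2. Each change of a member is therefore also given within column 1, where SC1 replicate 1 alone stands against the 3 DMSO arrays and is assumed to vary like the others. The genes outside the members that the naming rule picks (given with the processing) kept their direction in that fit. Rest, also named below, is not among them.

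Of the 15 probes, 12 stood well above background throughout at least 1 group, on all 3 of its arrays, and were tested. With 1 value per gene (the brightest probe), 8 of the 9 genes were tested: 2 were higher with SC1, 3 were lower and 3 did not pass an adjusted p of 0.05 in limma. In the same fit 38.3% of all 25439 genes and intervals passed, 18.1% higher and 20.2% lower. With so many genes passing, 5 of 8 members is a description of these genes. The signals of the SC1 arrays did not overlap those of the DMSO arrays, after scaling, for 6 of the 8 members, against 52.1% of all genes. When every probe was tested, 6 of the 12 member probes passed, 3 in each direction, against 36.3% of all probes. The median log2 difference, SC1 minus DMSO, was -0.059 over the 8 members and -0.0052 over all genes. In bulk RNA, fewer cells carrying a transcript and less of it per cell cannot be told apart.

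**Figure D1:**
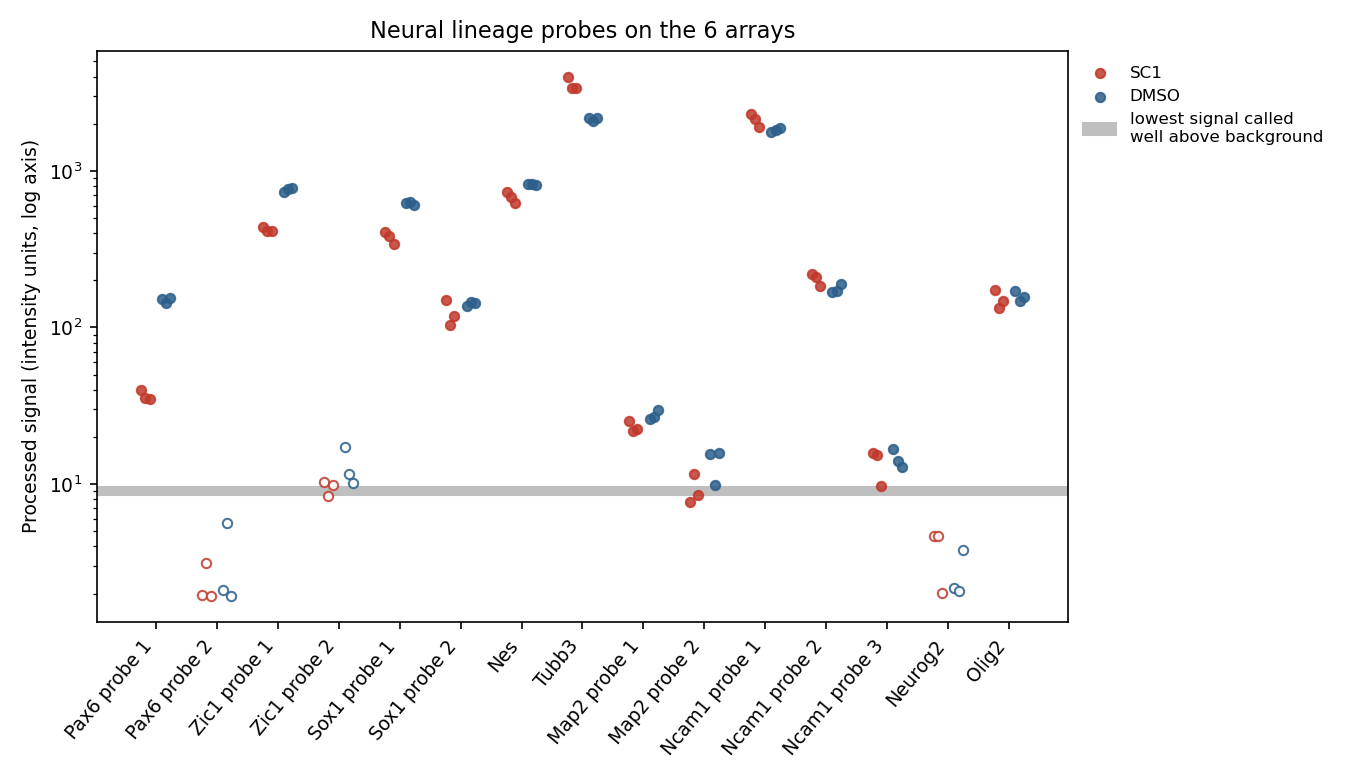
Processed signal (intensity units, log axis) of the 15 probes on the 3 SC1 arrays (red, left) and the 3 DMSO arrays (blue, right), before scaling; open circles are the 3 probes left out of the test and the grey band is the range over arrays, 8.53 to 9.57, of the lowest signal called well above background. The Pax6 signals sit at 35.02 to 40.1 with SC1 and 143.93 to 154.78 with DMSO, and Tubb3 runs the other way.

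The members that fell were 3 transcription factor genes of neural progenitors. Pax6 fell 3.55-fold, Zic1 1.56-fold and Sox1, by its brighter probe, 1.44-fold. Pax6 (chr2:105668896-105698410, GRCm38.p6), a paired-box factor of the forebrain, eye and spinal cord, had signals of 40.1, 35.44 and 35.02 on SC1 arrays, against 152.14, 143.93 and 154.78 on DMSO arrays. Every SC1 array was far below every DMSO array, and both groups lay above the lowest detected signal. This Pax6 probe is printed at 2 spots, and each gave the same picture: 32.01 to 35.87 with SC1 against 135.22 to 156.68 with DMSO at spot 1, and 38.01 to 44.83 against 147.72 to 156.84 at spot 2. The normalized log2 level was -3.66 ± 0.036 with SC1 and -1.83 ± 0.050 with DMSO (SD, n = 3 each). The log2 difference for Pax6 was -1.83 (SE 0.046, 95% interval -1.94 to -1.71, limma adjusted p = 9.69e-06). Only 0.476% of all genes had a lower value of this difference. Within slide column 1 the Pax6 difference was -1.79 (limma adjusted p = 0.000523). Its size depended on how background was removed: with normexp, an alternative correction run with an offset of 50 intensity units, it was -0.98 after quantile and -0.88 after 75th percentile scaling, and it passed in both. A second Pax6 probe was not well above background on any array (1.93 to 3.13 with SC1, 1.94 to 5.66 with DMSO) and was not tested.

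Zic1 (chr9:91358058-91365768), a zinc finger factor of the dorsal neural tube and cerebellum, had signals of 435.45, 415.03 and 415.54 on SC1 arrays, against 730.87, 763.63 and 781.69 on DMSO arrays. No SC1 array reached a DMSO array, and the spread within each group was small. The normalized log2 level of Zic1 was -0.14 ± 0.044 with SC1 and 0.50 ± 0.057 with DMSO (SD, n = 3 each). The log2 difference was -0.64 (SE 0.049, limma adjusted p = 0.000281), and 4.92% of genes had a lower one. Within slide column 1 it was -0.68 (limma adjusted p = 0.00482). The other Zic1 probe gave 8.46 to 10.35 with SC1 and 10.11 to 17.33 with DMSO, close to background, and was left out because neither group was detected on all 3 of its arrays.

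Sox1 (chr8:12395519-12399555), a SOXB1 factor among the earliest markers of the neural plate, was read by 2 probes that gave different values. The brighter probe had signals of 405.96, 383.22 and 338.88 on SC1 arrays, against 625.34, 632.92 and 601.34 on DMSO arrays. All 3 SC1 arrays were below all DMSO arrays for that probe, and the normalized log2 level was -0.31 ± 0.069 with SC1 and 0.21 ± 0.039 with DMSO (SD, n = 3 each). Its log2 difference was -0.52 (SE 0.052, limma adjusted p = 0.00074), and -0.49 within slide column 1 (limma adjusted p = 0.0142). The dimmer probe had 149.56, 103.39 and 118.34 on SC1 arrays, against 137.7, 145.36 and 142.86 on DMSO arrays. There the groups overlapped, with SC1 replicate 1 the brightest of the 6 arrays, and the log2 difference was -0.011 (95% interval -0.28 to 0.26, limma adjusted p = 0.951 over all probes). The change of the brighter probe was 0.51 lower on the log2 scale than that of the dimmer probe, and an exact two-sided permutation test gave p = 0.1. That is the smallest p that 3 against 3 arrays allow, so the test cannot show that the probes differ, and the pair was compared because their values differed. Averaged over both probes, Sox1 had a log2 difference of -0.27 (limma adjusted p = 0.0188).

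Nes, Neurog2 and Olig2, which stand for the progenitor filament and the neuronal and oligodendrocyte programmes, did not pass or could not be tested. Nes (chr3:87971093-87980451), the gene of nestin, had signals of 737.95, 681.17 and 624.75 on SC1 arrays, against 822.59, 825.47 and 815.86 on DMSO arrays. The SC1 arrays were all lower, before and after scaling, but the scaled gap did not pass. The log2 difference of Nes was -0.069 (95% interval -0.17 to 0.034, limma adjusted p = 0.253), with normalized levels of 0.55 ± 0.047 with SC1 and 0.62 ± 0.013 with DMSO (SD, n = 3 each). Olig2 (chr16:91225550-91228677), a factor of motor neuron and oligodendrocyte progenitors, had 172.47, 133.29 and 147.04 on SC1 arrays, against 169.94, 147.82 and 155.93 on DMSO arrays. Those groups overlapped, and the log2 difference was 0.13 (95% interval -0.077 to 0.34, limma adjusted p = 0.278). Neurog2 (chr3:127632733-127635636), a proneural factor of cortical and sensory neurons, was not well above background on any array, at 4.69, 4.7 and 2.03 on SC1 arrays and 2.17, 2.08 and 3.78 on DMSO arrays. No change in Neurog2 was detectable at this signal.

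Among the neuronal structural genes, Tubb3 rose 1.92-fold and Ncam1 1.34-fold, and Map2 did not pass. Tubb3 (chr8:123411553-123422015), a tubulin typical of young neurons, had signals of 3987.89, 3374.66 and 3363.75 on SC1 arrays, against 2178.03, 2072.31 and 2166.19 on DMSO arrays. All SC1 arrays were above all DMSO arrays, although the SC1 arrays were dimmer as a whole. The normalized log2 level of Tubb3 was 2.94 ± 0.069 with SC1 and 2.00 ± 0.033 with DMSO (SD, n = 3 each). The log2 difference was 0.94 (SE 0.051, limma adjusted p = 8.26e-05), larger than that of 97.2% of genes. Within slide column 1 it was 1.02 (limma adjusted p = 0.00139).

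Ncam1 (chr9:49502129-49799393), a cell adhesion molecule of neurons and of other early cells, was read by 3 probes. The brightest had 2318.91, 2149.63 and 1904.89 on SC1 arrays, against 1766.52, 1819.94 and 1879.7 on DMSO arrays. SC1 replicate 3 was only just above the highest DMSO array before scaling. The normalized log2 level was 2.19 ± 0.074 with SC1 and 1.77 ± 0.052 with DMSO (SD, n = 3 each), a difference of 0.42 (SE 0.055, limma adjusted p = 0.00219). The rise of Ncam1 lost its call when the arrays were scaled to spike-in RNA, at 0.38 (limma adjusted p = 0.0732), and was 0.47 within slide column 1 (limma adjusted p = 0.0186). The second Ncam1 probe, designed on another RefSeq transcript, had 218.02, 209.98 and 184.97 with SC1 against 168.7, 172.06 and 189.25 with DMSO, a log2 difference of 0.41 after scaling (limma adjusted p = 0.00525 over all probes). The dimmest probe, at 9.72 to 15.73 with SC1 and 12.83 to 16.67 with DMSO, had a log2 difference of 0.089 (limma adjusted p = 0.75 over all probes).

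Map2 (chr1:66175202-66442583), a microtubule-associated protein of dendrites, was dim in both groups. Its brighter probe had 25.23, 21.81 and 22.36 on SC1 arrays, against 26.03, 27.01 and 29.59 on DMSO arrays. After scaling the groups overlapped, and the log2 difference was -0.049 (95% interval -0.21 to 0.11, limma adjusted p = 0.599). The other Map2 probe was detected on 1 SC1 array and on all 3 DMSO arrays, at 7.64 to 11.58 and 9.94 to 15.71. Its log2 difference of -0.36 had a 95% interval of -0.96 to 0.24 (limma adjusted p = 0.308 over all probes).

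**Figure D2:**
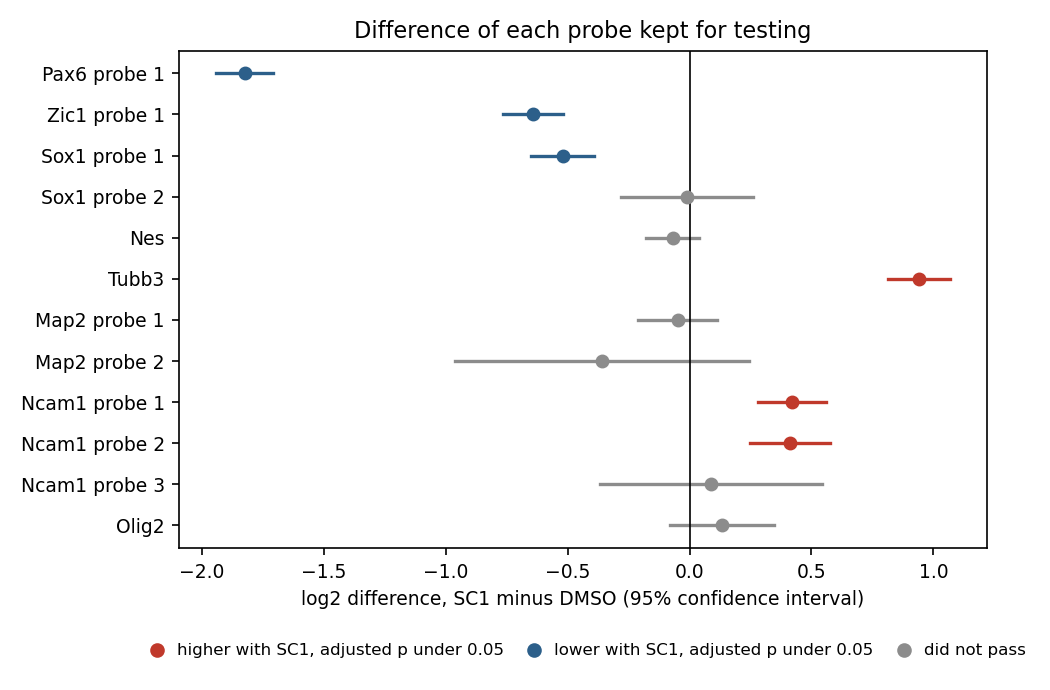
Log2 difference, SC1 minus DMSO, with its 95% confidence interval for each of the 12 probes tested (n = 3 arrays in each group); red and blue points passed an adjusted p of 0.05 over all probes, grey points did not. Pax6 at -1.83 lies apart from the others, and the 2 Sox1 probes differ, at -0.52 and -0.011.

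The genes whose normalized log2 values over the 6 arrays were most like each changed member were looked up in a subset of those detected on all 6 arrays. The subset was 14261 genes with a RefSeq symbol, and provisional names, such as those with Rik, were left out. The 6 points fall into 2 groups, so such a correlation mostly restates the group difference, and it is given as a description. Pax6 was closest to Egr1, an immediate early gene (r = 0.9998), and to Gbx2, a homeobox gene (r = 0.9997), whose log2 differences were -3.53 and -3.33. Mtres1 was among the genes closest to Zic1 (r = 0.9990, log2 difference -0.51). Sox1 was closest to Nrxn3, a synaptic adhesion gene (r = 0.9993, log2 difference -0.50), and Rtp4 (r = 0.9986, log2 difference -1.70). Tubb3 was closest to Zfp438 and Ap3m2 (r = 0.9996 each), with log2 differences of 0.50 and 1.11. Ncam1 was closest to Sync (r = 0.9989, log2 difference 0.61) and Dnajb4 (r = 0.9988, log2 difference 0.35). The call of Nrxn3 did not hold over the mean of its probes (-0.39, limma adjusted p = 0.185), and that of Dnajb4 not with spike-in scaling (0.31, limma adjusted p = 0.165). With normexp and quantile scaling the log2 differences were smaller, though passing, for Rtp4 (-0.52), Zfp438 (0.31), Sync (0.37) and Dnajb4 (0.16), and with normexp and 75th percentile scaling that of Rtp4 was -0.39.

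Further lists of neural genes show how the members sit among genes of their kind, and each count is to be read against the 18.1% of all genes that were higher with SC1 and the 20.2% that were lower. Of 26 other regulators of neural progenitors, 18 were tested: 7 were lower with SC1, 3 were higher and 8 did not pass, with a median log2 difference of -0.14. Zic5, a zinc finger gene of the same family as Zic1, had 114.5, 99.6 and 100.4 with SC1 against 268.3, 259.2 and 282.2 with DMSO, a log2 difference of -1.16 (limma adjusted p = 4.6e-05). All 3 SC1 arrays were far below all DMSO arrays. Sox21, a SOXB2 factor that promotes neuronal differentiation, went the other way, at 316.7, 288.6 and 286.3 with SC1 against 156.5, 175.5 and 168.1 with DMSO, a log2 difference of 1.04 (limma adjusted p = 8.94e-05). Its other probe passed with a smaller difference, 0.29 (limma adjusted p = 0.044 over all probes).

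Of 18 proneural and neuronal transcription factors, 11 were tested: 3 were higher with SC1, 4 were lower and 4 did not pass, with a median of 0.028. When detection on all 6 arrays was required, 9 of the list were tested, 2 of them higher and 3 lower. Over all 24144 genes and intervals tested that way, 4539 were higher and 5071 lower. Neurog3, a proneural factor best known from the endocrine pancreas and from hypothalamic neurons, rose 7.40-fold. Its signals were 6522.6, 5529 and 5914.2 on SC1 arrays, against 954.2, 844.1 and 998.4 on DMSO arrays, a log2 difference of 2.89 (limma adjusted p = 1.12e-05). It was detected on every array, in contrast to Neurog2. Ebf2 was detected on all SC1 arrays, at 30.2, 19.1 and 22.8, and on no DMSO array, at 4.1, 5.3 and 3.6. Its probe was kept for testing through the SC1 arrays alone. After scaling, the SC1 mean of Ebf2 was 3.02-fold above the lowest signal well above background on the DMSO arrays (limma adjusted p = 0.000238, from DMSO signals at background). This is not a strict minimum of the change. Another gene of the list, among the 4 lower, was at 12.9 to 15.6 on SC1 arrays and was detected on only 2 of them. It was kept for testing through the DMSO arrays alone. The 3.02-fold value is for the processed signal only. With normexp the log2 difference of Ebf2 was 0.48 after quantile and 0.63 after 75th percentile scaling. Ebf1, of the same family of early B cell factors, fell 2.51-fold, at 84.8, 88.5 and 81.4 with SC1 against 250.5, 233.6 and 252.8 with DMSO (limma adjusted p = 4.75e-05). Its log2 difference was -1.33, and -0.85 with normexp and 75th percentile scaling.

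Genes of the neuronal cytoskeleton, adhesion and RNA binding numbered 24, of which 22 were tested: 10 were higher with SC1, 4 were lower and 8 did not pass, with a median log2 difference of 0.20. With spike-in scaling 6 were higher and 2 lower, and over all 25439 genes 2288 were higher and 2780 lower. Gap43, a protein of growth cones, had 850.9, 789.3 and 703.4 with SC1 against 465.2, 414.9 and 452.1 with DMSO, a log2 difference of 1.02 (limma adjusted p = 0.000117). Dpysl3, which acts in axon guidance, had 9624.4, 8931.6 and 8804.9 with SC1 against 5990.8, 5997.5 and 5682.8 with DMSO, a log2 difference of 0.83 (limma adjusted p = 6.58e-05). Its other probe had a smaller difference, 0.52 (limma adjusted p = 0.00467 over all probes). Mapt, the gene of tau, had 7497, 7038.2 and 6891.5 with SC1 against 4907.3, 4852.3 and 4890.4 with DMSO, a log2 difference of 0.75 (limma adjusted p = 6.04e-05), and its 3 probes lay between 0.75 and 0.83. For Gap43, Dpysl3 and Mapt the groups were apart on every array, as for Tubb3. They were picked as the genes of the list with the smallest p, so they do not stand for the list. The 4 genes of the list that were lower with SC1 had log2 differences from -0.44 to -0.30. Dcx and Ncam2, other widely used neuronal markers, were not well above background on any array with any of their probes.

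**Figure D3:**
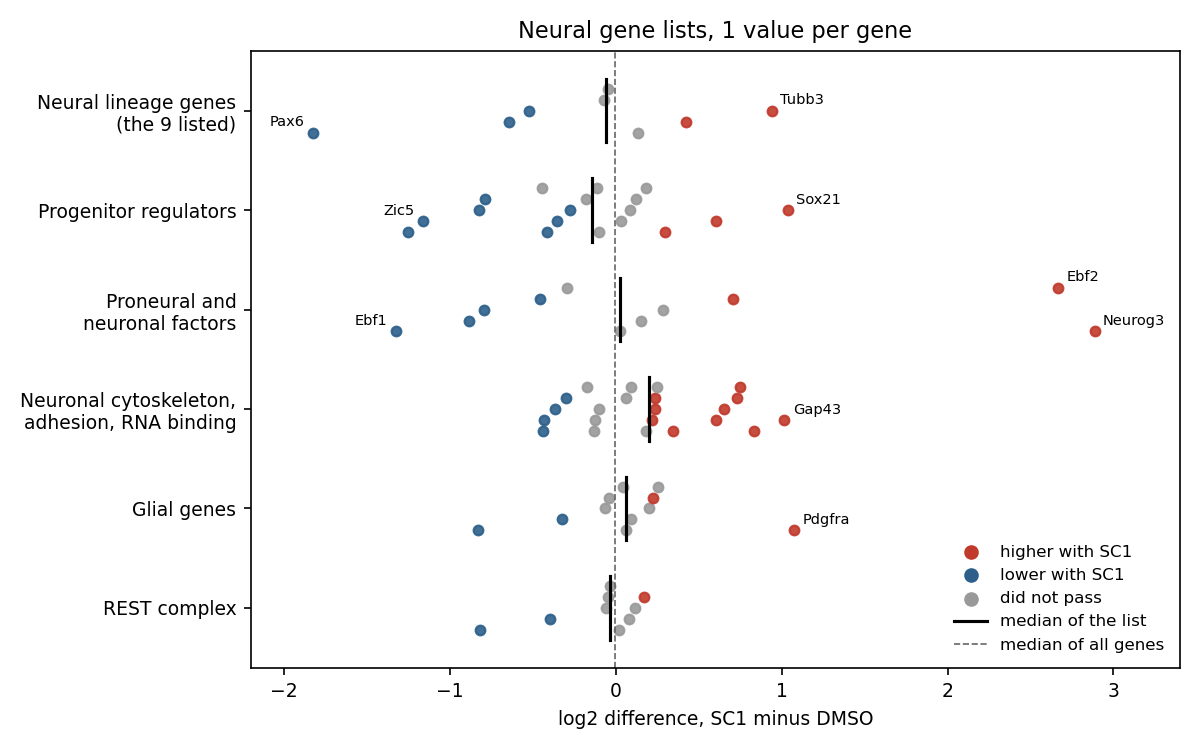
Log2 difference, SC1 minus DMSO, of each tested gene of the neural lineage genes and of 5 other neural lists, 1 value per gene; red and blue genes passed an adjusted p of 0.05 over all genes, black bars are list medians and the dashed line is the median of all genes. List medians run from -0.14 for progenitor regulators to 0.20 for the neuronal cytoskeleton, adhesion and RNA-binding list, with single genes on both sides of 0 in every list. The Ebf2 point is the fitted value, which rests on DMSO signals at background.

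Glial genes numbered 15, of which 11 were tested: 2 were higher with SC1, 2 were lower and 7 did not pass, with a median of 0.064. Pdgfra, a receptor of oligodendrocyte precursors and of mesenchyme, was higher, at 76.2, 66.9 and 73.8 with SC1 against 39.4, 38.8 and 40.4 with DMSO, a log2 difference of 1.07 (limma adjusted p = 8.86e-05). With normexp the Pdgfra difference was 0.51 after quantile and 0.61 after 75th percentile scaling. With spike-in scaling 1 glial gene was higher and 1 lower, and over all 25439 genes 2288 were higher and 2780 lower. Slc1a3, a glutamate transporter of astrocytes and radial glia, had a log2 difference of -0.83 (limma adjusted p = 0.000889). REST is a repressor of neuronal genes in other cells, and all 9 genes of its complex were tested. Rest itself had a log2 difference of -0.038 (limma adjusted p = 0.707), with 17463.7, 17834.7 and 14702.2 on SC1 arrays and 20614.8, 19230 and 19102.5 on DMSO arrays. The corepressor gene Rcor2 had a log2 difference of -0.82 (limma adjusted p = 0.00201), and Sin3a one of -0.40 (limma adjusted p = 0.00282). Rcor3 was higher by 0.17 (limma adjusted p = 0.0165), a call that was lost in 7 of 19 alternatives. Its limma adjusted p was 0.672 with spike-in scaling, 0.106 within slide column 1, 0.0609 with replicate number as a block, and 0.0533 to 0.0562 without SC1 replicate 1, DMSO replicate 2 or DMSO replicate 3. It also missed a threshold of 0.01. The other 6 genes of the complex did not pass, and the list median was -0.038, which turned to 0.04 with quantile normalization. Of 10 neural noncoding RNAs, Neat1, which is present in many cell types, was the only one detected in a whole group, with a log2 difference of 0.41 (limma adjusted p = 0.00641, and 0.0993 with spike-in scaling). Pax6os1, the antisense RNA next to Pax6, was not well above background on any array, and 4 had no matched probe.

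Markers of other cell types were read in the same fit, and their part in the results above was not tested. Their counts, too, are to be read against the 18.1% of all genes that were higher with SC1 and the 20.2% that were lower. The lists share genes, so their counts are not separate. A lower embryonic stem cell marker is also counted among the progenitor regulators, and a neural crest marker that did not pass among the glial genes. Of the 10 embryonic stem cell markers 5 were lower with SC1, 1 was higher and 4 did not pass. The counts depended on scaling, with 4 lower and 3 higher after quantile normalization, 5 lower and 4 higher after normexp and quantile, and 3 lower and 0 higher with spike-in scaling. Over all 25439 genes, 4642 were lower and 5065 higher after quantile normalization. The all-gene counts were 4772 lower and 5182 higher after normexp and quantile, and 2780 lower and 2288 higher with spike-in scaling. Utf1, Tdgf1 and Dppa4 were the lower markers with the smallest p, at log2 differences of -2.36, -1.39 and -1.52. The summed signal of all 10 markers was 274634.7 to 292399.2 with SC1 and 344543.9 to 355362.1 with DMSO. This sum and those below are unscaled, and the SC1 arrays were dimmer as a whole. Of 10 fibroblast markers 7 were tested, 4 of them higher, 1 lower and 2 not passing. Their summed signal was 1170.5 to 1314.7 with SC1 and 1620.1 to 1710.2 with DMSO. Thy1, the lower marker, gave 284.1 to 361.6 of it with SC1 and 729.1 to 796.1 with DMSO. The log2 differences were 1.18 for Dcn, 0.81 for Col1a1 and -1.09 for Thy1, while Lum, Postn and Twist2 were not well above background on any array. With normexp Dcn was 0.33 after quantile and 0.45 after 75th percentile scaling, and the median of the fibroblast markers was 0.11 and 0.26, against 0.50 as reported. Of 10 mesoderm and endoderm markers 7 were tested, 2 higher, 2 lower and 3 not passing, with a summed signal of 719.2 to 769.9 with SC1 and 938.3 to 1000.3 with DMSO. Mesp1 was detected on no SC1 array and kept through the DMSO arrays alone. Its scaled DMSO mean was 1.81-fold above the lowest signal well above background on the SC1 arrays, again not a strict minimum of the change. The log2 differences were -0.39 for Eomes and 0.66 for Foxa2. With normexp, after quantile and after 75th percentile scaling, Mesp1 was -0.36 and -0.21 and Foxa2 0.31 and 0.40. Of 6 neural crest markers 4 were tested, with a summed signal of 2132.1 to 2503.1 with SC1 and 2342.7 to 2476.9 with DMSO. Ngfr, a neurotrophin receptor gene, had a log2 difference of 0.79, and Foxd3, which embryonic stem cells also express, one of -1.77.

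The members' differences were recomputed under 19 alternative ways of processing. Pax6 lay between -1.87 and -0.88, Zic1 between -0.68 and -0.58, Sox1 between -0.56 and -0.27 and Tubb3 between 0.90 and 1.02, and all passed in each of the 19. For Sox1 these values are of its brighter probe, apart from the mean of its probes, so they do not bear on the difference between the probes. The dimmer Sox1 probe alone passed in none of the alternatives and had either sign. Ncam1 lay between 0.31 and 0.47 and passed in 18. Nes, Map2 and Olig2 passed in none, and Map2 had either sign.

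**Figure D4:**
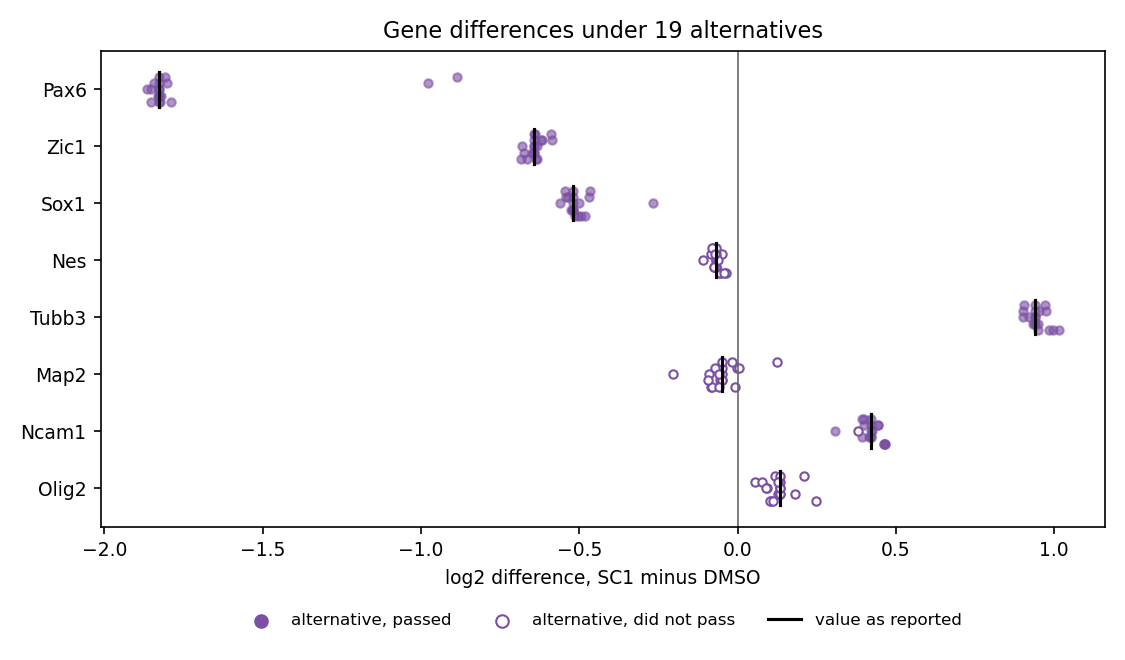
Log2 difference, SC1 minus DMSO, of the 8 tested members under 19 alternatives (points, spread vertically for legibility) beside the reported value (black bar); filled points passed and open points did not. The 2 Pax6 points near -0.98 and -0.88 are those with normexp background correction, and the Sox1 point at -0.27 is the mean of its 2 probes.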

How the data were processed

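Per the labels, total RNA of 6 samples was amplified with Cy3 for single-colour Agilent arrays. Spots were quantified with Agilent Feature Extraction 10.7, per the submitters' processing notes. The deposited intensity per spot is the processed signal, and other columns hold flags for spots well above background or outlying, per the file headers. A deposited matrix of the authors' log2 values served as an alternative.

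Control and outlier spots were left out, log2 signals of a probe's spots averaged, and each array's 75th percentile subtracted. A probe was kept (35321 were) if every array of either group called it well above background, and the brightest probe per gene was tested (25439 genes and intervals) with limma 3.58.1 in R 4.3.3 (lmFit, eBayes, two-sided, Benjamini-Hochberg over all genes, threshold 0.05). A second fit tested every kept probe. A RefSeq table (GRCm38.p6) named 27235 probes by accession, the members' included; the array design's own build is mm9, per the file headers. Members and lists were chosen with earlier results of these data known. Named genes were all members, up to 3 genes per list with the smallest p among those passing, and the 2 genes most correlated with each member that passed; a few of these are left out of the text. The fold values of Ebf2 and Mesp1 over the lowest signal well above background used normalized log2 means. Python 3.11.15 (matplotlib 3.10.9) drew the figures. The number of arrays limits the precision.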

Additional observations from a re-analysis of the deposited data

How the results depend on the processing

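Across all genes 9751 passed, of which 47.3% were higher with SC1. This count fell to 5068 with spike-in scaling (2288 higher, 2780 lower), 5543 with slide column as a block (2689 higher, 2854 lower) and 5792 at a threshold of 0.01 (2790 higher, 3002 lower), and the share higher was 57.9% with normexp and 75th percentile scaling. Leaving out each replicate in turn left 7783 to 8446 genes. Of the members 5 passed with each replicate left out, and 6 of their probes. Whether the replicate numbers mark a pairing is not known, and 3 arrays per group cannot settle it. Deviations from the group means correlated at -0.013, -0.036 and -0.015 between arrays with the same number. The highest correlation with another number was 0.057, 0.073 and 0.079. With replicate number as a block, 7910 genes passed (3836 higher, 4074 lower), with 5 members and 6 member probes among them, and the adjusted p of Ncam1 was 0.0183.

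Among the members, only values that did not pass in the reported fit changed sign. Map2 was 0.12 with normexp and 75th percentile scaling and ranged from -0.094 to 0.0053 with a replicate left out; its dimmer probe was 0.11 with that normexp setting. The dimmer Sox1 probe was 0.0097 with that setting, 0.19 with the slide column block and -0.11 to 0.10 with a replicate left out. The dimmest Ncam1 probe ranged from -0.027 to 0.28 with a replicate left out and passed at 0.16 with that normexp setting (adjusted p = 0.0249). With spike-in scaling Ncam1 was 0.38 (adjusted p = 0.0732) and its second probe 0.37 (adjusted p = 0.0843). The cause was not tested.

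The median of the progenitor regulators was -0.078 with normexp and quantile and -0.032 with normexp and 75th percentile scaling. That of the proneural factors was -0.012 with spike-in scaling, 0.092 with normexp and 75th percentile scaling and 0.17 without a filter. With normexp and 75th percentile scaling 5 proneural factors were higher and 3 lower. Over all 25439 genes 6977 were higher and 5073 lower in that setting, with a median of 0.042. That of the cytoskeletal list was 0.16 with spike-in scaling and with normexp and quantile. The REST list was 0.04, 0.037 and 0.039 with quantile, normexp and quantile, and the deposited matrix. Of 37 genes outside the members that the naming rule picks, 5 lost their call under some alternative and 0 changed sign. Dim probes, such as those of Map2, limit what could be detected.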
